A study of Glycine max with 15 samples.

Results

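Reference genes are the internal standards of quantitative PCR: the transcript of a target gene is read as a ratio to a transcript that is taken to stay at the same level. A reference that itself moves with a treatment carries that movement, with the opposite sign, into every target divided by it. The transcripts described here belong to 7 genes used as references in soybean, SKIP16, UKN1, UKN2, TIP41, ACT11, CYP2 and ELF1B. They were chosen by gene ID for that use and not by their values, and all 7 were found among the 54175 gene IDs of each expression table. The question was how steady each stayed under an inhibitor of brassinosteroid synthesis and under the hormone. Brassinosteroids are plant steroids that drive cell elongation and division; brassinolide (BL) is the most active of them, and propiconazole (Pcz) blocks a step of their synthesis.

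RNA was sequenced from seedlings of Glycine max cultivar Williams 82, aged 10 days and at the first vegetative stage, in 15 libraries forming 5 groups of 3. Control plants were mock treated. The treated groups received 5 mM Pcz alone, 5 mM Pcz plus BL at 10 nM, or 5 mM Pcz and BL at 1 mM, the last in 1 group for 1 h and in another for 8 h. These units are those of the labels, and the millimolar doses are high enough to be doubtful. Every treated group carried Pcz, none received BL alone, and none received Pcz with a mock addition, so that an effect of BL and one of the addition or its timing cannot be told apart.

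The authors deposited 4 tables, each with 1 FPKM value for control and 1 for a treated group, pooled over libraries. FPKM is a level per transcript length, from fragment numbers scaled to sequencing depth. The spread between libraries and the depth behind each value are therefore unknown, and an SD below is a spread over groups. Sheet Pcz is cited by the labels for the inhibitor alone, sheet Pcz-BL for the low BL dose, sheet Pcz-BL-1h for the short high-dose treatment and sheet Pcz-BL-8h for the long one, and values are listed in this order below. The treated columns of the last 3 sheets carry other names (those of the short, the long and the low-dose treatment), so which hormone treatment each of these 3 holds is uncertain. The tables were normalised separately: the control column of Pcz-BL-8h was 0.829 times that of Pcz-BL at the median gene, which lowers every level of Pcz-BL-8h set beside another table.

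The pairing of IDs with names comes from the list of references, since the files carry no gene names. Of the 7 names, 3 are symbols in RefSeq's gene table for assembly Glycine_max_v4.0, which matched 0 of the 54175 IDs. In that table CYP2 and ELF1B lie on the same chromosome as the ID paired with them here, while SKIP16 lies on a different one, so the ID called SKIP16 here may be another gene than the one with that symbol in RefSeq. Without gene names, markers of tissues or cell types could not be looked up. In seedlings a change in the share of a cell type and a change in transcript per cell cannot be told apart. No other gene ID overlapped the locus of any of the 7.

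The 7 genes covered a wide range of levels. In control, taken as the mean over the 4 tables on a log scale, the order from high to low was CYP2 at 206 FPKM, ACT11 at 43.8, SKIP16 at 31.1, ELF1B at 26.3, TIP41 at 19.5, UKN1 at 8.24 and UKN2 at 4.86. The order was the same in Pcz. SKIP16 (41.2 FPKM) stood above ACT11 (28.4 FPKM) in Pcz-BL, ELF1B stood above SKIP16 in both sheets of high BL, and UKN2 (5.78 FPKM) stood above UKN1 (4.28 FPKM) in Pcz-BL-8h. Whether neighbours in these orders differ beyond the spread between libraries was not tested.

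**Figure D1:**
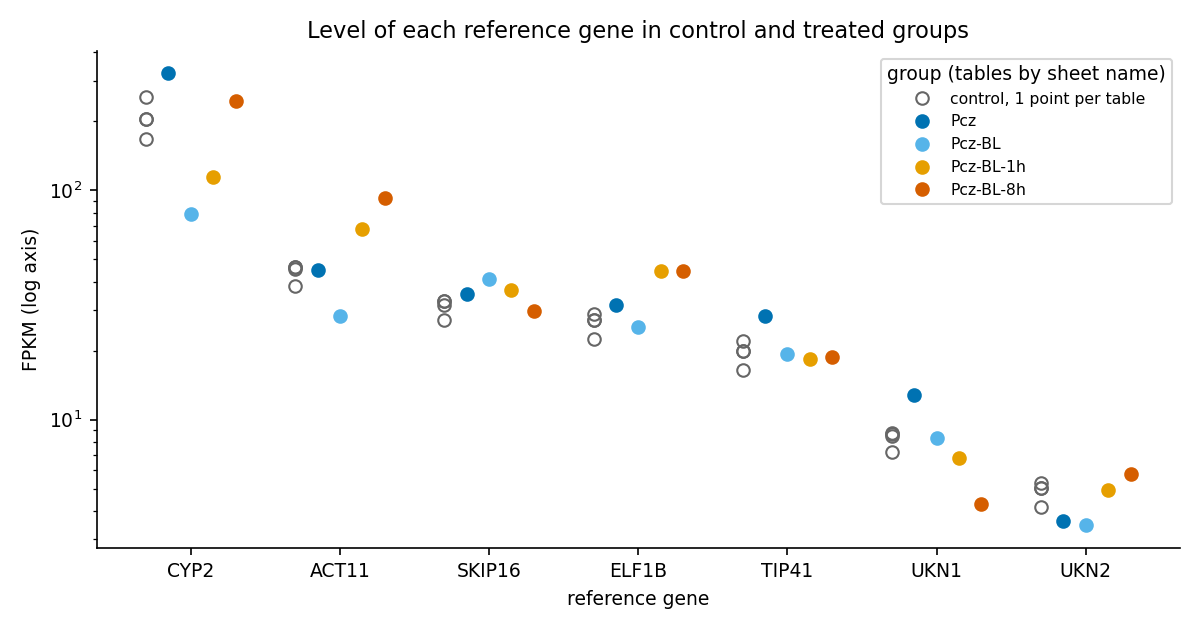
FPKM (vertical, log axis) of the 7 reference genes (horizontal, from the highest to the lowest mean); open grey circles are the control value of each of the 4 tables and filled circles the treated value of each table, pooled by the authors over libraries. CYP2 ran from 78.7 to 324 FPKM among treated groups, while SKIP16 stayed between 29.6 and 41.2 FPKM.

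The references differed in how often they were called changed, and which ones were called depended on the scale and on the rule for a call. A gene was called at an authors' q-value (a p-value adjusted over all tested genes) of 0.05 or less. On the FPKM scale SKIP16 and TIP41 were called changed in 0 of 4 tables, UKN2 in 1, UKN1, CYP2 and ELF1B in 2 and ACT11 in 3. How many of all genes were called in as many tables was not computed, so whether these counts are unusual is unknown. As shares of total FPKM, described further on, SKIP16 was called higher in 3 tables and TIP41 in 1. By the authors' q on the FPKM scale, in Pcz 2 of 7 were called (28.6%, against 53.4% of all tested genes), UKN1 higher (24.9% of all genes) and UKN2 lower (28.4%). In Pcz-BL 2 of 7 were called (28.6%, against 36.2%), ACT11 and CYP2, both lower on the FPKM scale (22.8% of all genes, with 13.4% higher), while ACT11 as a share of total FPKM stood at a log2 of 0.038 above control and was not called. In Pcz-BL-1h 3 of 7 were called (42.9%, against 52.1%), ACT11 and ELF1B higher (25.6%) and CYP2 lower (26.5%). In Pcz-BL-8h 3 of 7 were called (42.9%, against 56.5%), ACT11 and ELF1B higher (25.8%) and UKN1 lower (30.7%). The median size of the log2 fold change of the 7 genes was 0.35, 0.33, 0.36 and 0.55 in the 4 tables, against 0.68, 0.55, 0.63 and 0.90 over all tested genes. No test was made of the difference between these shares or medians. Tested genes of any level enter those of all genes, with no matching to the levels of the 7.

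The authors' calls were more frequent than their test statistic alone would give. When p was computed from that statistic by the normal distribution and adjusted over all genes (below, the normal q), 4 of 28 values of the 7 genes were called, against 10 by the authors' q: CYP2 in sheets Pcz-BL and Pcz-BL-1h, and both ACT11 and ELF1B in Pcz-BL-8h. By that rule 34.3%, 15.7%, 29.7% and 31.1% of all genes were called in the 4 tables. The 95% intervals below come from the same statistic, with the standard error (SE) as the fold change divided by it, so intervals of some genes called by the authors' q include 0. SEs of the 7 genes ran from 0.235 to 0.481 on the log2 scale.

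**Figure D2:**
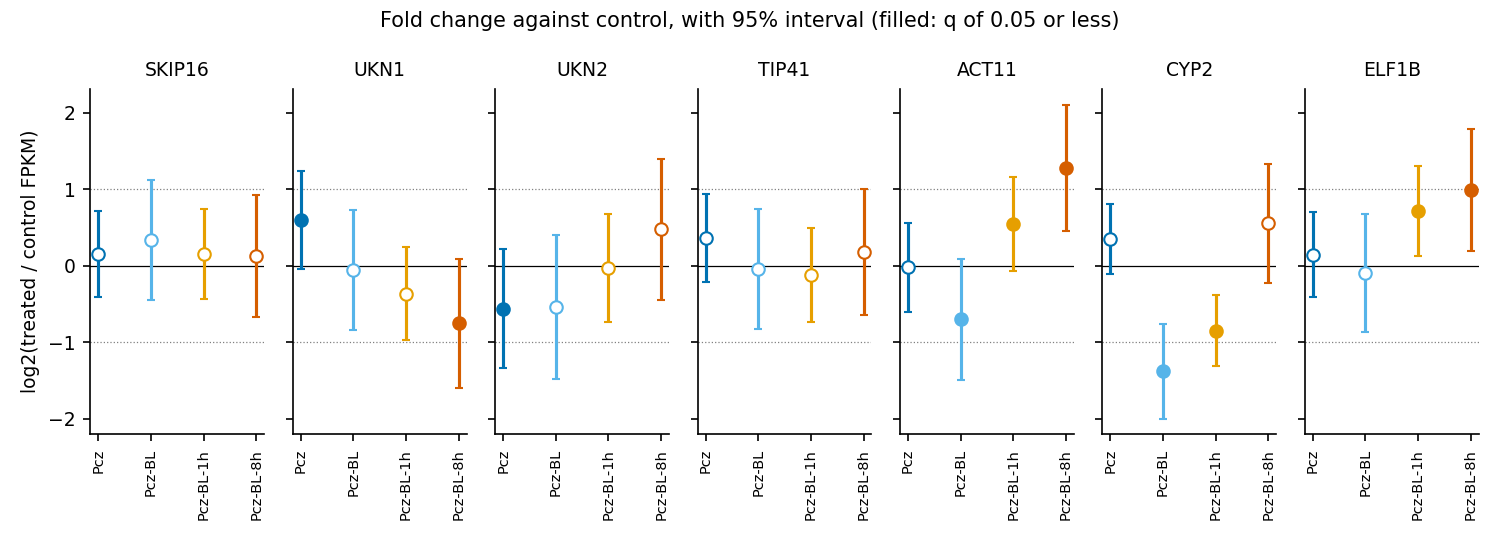
Log2 of treated over control FPKM (vertical) for each gene (panels) in the 4 tables (horizontal, by sheet name); bars are 95% intervals from the fold change and the authors' test statistic, filled points have an authors' q of 0.05 or less, and dotted lines mark 2-fold. The points of SKIP16 and TIP41 lie within 0.36 of 0, and those of CYP2 and ACT11 pass 2-fold in 1 table each.

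SKIP16 and TIP41 are named after regulatory proteins. In Arabidopsis SKIP16 is an F-box protein that binds SKP1-like subunits of ubiquitin ligases, and in yeast TIP41 is a regulator in the TOR kinase pathway. SKIP16 (Glyma12g05510, chromosome 12, 3673128 to 3677570 in the coordinates of the files, whose genome build no source at hand gives) had control values of 31.8, 32.8, 32.9 and 27.1 FPKM in the authors' deposited tables, and treated values of 35.4, 41.2, 36.6 and 29.6 FPKM. Each treated value lay above the control of its own table, by 1.09-fold to 1.26-fold. The log2 fold changes in the authors' deposited tables were 0.16, 0.33, 0.15 and 0.13, with q from 0.271 to 0.665. The interval that reached farthest from 0 was that of Pcz-BL, from -0.45 to 1.11, so 2-fold above control lay inside it, and the other 3 lay within 2-fold of control on both sides.

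TIP41 (Glyma20g26690, chromosome 20, 36049069 to 36054546) had control values of 22.1, 19.9, 19.9 and 16.5 FPKM and treated values of 28.3, 19.3, 18.3 and 18.7 FPKM in the authors' deposited tables. The Pcz value stood above every other column. The FPKM of the 3 hormone groups lay close together, although the control of Pcz-BL-8h was lower than that of the other tables. Log2 fold changes in the authors' deposited tables were 0.36, -0.042, -0.12 and 0.18, with q from 0.112 to 0.915. All 4 intervals lay within 2-fold of control, the farthest reaching 0.999 in Pcz-BL-8h, which held for no other of the 7 genes on the FPKM scale with each table's own control. That margin is narrow: centring on the median gene moves the Pcz-BL-8h value from 0.18 to 0.28, and the controls of the other tables move that of Pcz to 0.52. Over the 7 genes the number with such an interval was 5, 3, 4 and 2 in the 4 tables, against 20.4%, 12.2%, 24.7% and 5.17% of all genes. Tested genes of any level enter these percentages, with no matching to the levels of the 7.

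ACT11 is an actin, a subunit of the filaments of the cytoskeleton. ACT11 (Glyma18g52780, chromosome 18, 61270804 to 61274605) had control values of 45.4, 46.1, 46.2 and 38.1 FPKM and treated values of 44.7, 28.4, 67.6 and 92.4 FPKM in the authors' deposited tables. Pcz alone was at control level, Pcz-BL was the lowest of all columns, and Pcz-BL-1h and Pcz-BL-8h were above every control value. In the authors' deposited table Pcz the log2 fold change was -0.023 (SE 0.298, q = 0.931). In the authors' deposited table Pcz-BL it fell by 0.70 (SE 0.402, q = 0.00953), but this call was lost by the normal q (0.273) and as a share of total FPKM ACT11 stood 0.038 above control. It rose by 0.55 in sheet Pcz-BL-1h of the authors' deposited table (SE 0.313, q = 0.00704), a call lost by the normal q (0.183) but made again as a share of total FPKM (1.16, normal q 0.00115). In Pcz-BL-8h it rose 2.42-fold, with a log2 fold change of 1.28 in the authors' deposited table (95% interval 0.45 to 2.10, q = 0.000181, normal q 0.0118).

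CYP2, a cyclophilin of the peptidyl-prolyl isomerases that help proteins fold, was the most abundant of the 7. It also had the largest range of FPKM across tables (4.11-fold), which the separate scaling of tables enters. Between fold changes against each table's own control, the largest difference was that of ACT11 (1.98), with 1.93 for CYP2. CYP2 (Glyma12g02790, chromosome 12, 1802046 to 1802806) had control values of 255, 205, 205 and 167 FPKM and treated values of 324, 78.7, 114 and 245 FPKM in the authors' deposited tables. Pcz lay above every control value, and Pcz-BL and Pcz-BL-1h lay below every one. In the authors' deposited table Pcz-BL it fell to 0.385 times control (SE 0.315 on the log2 scale, q = 0.000314, normal q 0.000268). In sheet Pcz-BL-1h of the authors' deposited table it fell by 0.85 on the log2 scale (95% interval -1.31 to -0.38, q = 0.000187, normal q 0.00234). As shares of total FPKM neither fall was called. The log2 fold changes of 0.35 in Pcz (q = 0.151) and 0.55 in Pcz-BL-8h (q = 0.0538) were not called in the authors' deposited tables, and their intervals reached 0.81 and 1.33.

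The control column of CYP2 was itself unequal between tables, although the labels give 1 control group. Its control value in Pcz was 1.24 times that in Pcz-BL, where the median ratio over 10637 genes with at least 10 FPKM in both was 0.996 with an SD of 0.171 on the log2 scale. Of those genes 93.3% deviated from the median by no more than CYP2 did. Taken against the control columns of the other 3 tables at the same median, the log2 fold change of CYP2 in Pcz was 0.68 in place of 0.35. For TIP41, the next in size, the control ratio was 1.11 and the log2 fold change in Pcz became 0.52 in place of 0.36. The control columns of Pcz-BL and Pcz-BL-1h differed by nearly a single factor, the log2 ratio having an SD over genes of 0.000938.

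ELF1B is a beta subunit of elongation factor 1, which exchanges the nucleotide of the factor that brings transfer RNA to the ribosome. ELF1B (Glyma02g44460, chromosome 2, 49033404 to 49036207) had control values of 28.8, 27.1, 27.2 and 22.5 FPKM and treated values of 31.8, 25.3, 44.7 and 44.6 FPKM in the authors' deposited tables. The treated values of Pcz-BL-1h and Pcz-BL-8h were above every control value. Their FPKM were near each other, but the control of Pcz-BL-8h was lower, as that table was scaled lower. Against their own controls they stood at 1.64-fold in Pcz-BL-1h and 1.98-fold in Pcz-BL-8h. In sheet Pcz-BL-1h of the authors' deposited table it rose by 0.71 (95% interval 0.13 to 1.30, q = 0.000187), a call lost by the normal q (0.0562) but made by it when centred on the median gene (0.0341) and as a share of total FPKM (7.92e-05). In the authors' deposited table Pcz-BL-8h it rose by 0.99 (95% interval 0.20 to 1.78, q = 0.000181, normal q 0.0473), a call lost as a share of total FPKM (normal q 0.0671). In Pcz and Pcz-BL the log2 fold changes of 0.14 and -0.10 were not called in the authors' deposited tables (q = 0.552 and 0.785), but as a share ELF1B was called higher in Pcz (0.66, normal q 0.0425).

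UKN1 and UKN2 are named as genes of unknown function and were the least abundant of the 7, with means of 8.09 and 4.53 FPKM over the 5 groups. UKN1 (Glyma12g02500, chromosome 12, 1602236 to 1610729) had control values of 8.44, 8.69, 8.71 and 7.22 FPKM and treated values of 12.8, 8.33, 6.77 and 4.28 FPKM in the authors' deposited tables. Pcz was above every control value, and Pcz-BL-1h and Pcz-BL-8h were below every one. It rose by 0.60 on the log2 scale in Pcz (q = 0.00686) and fell by 0.75 in Pcz-BL-8h (q = 0.00640) in the authors' deposited tables, and both calls were lost by the normal q (0.146 and 0.174). As a share of total FPKM the rise in Pcz was called (1.12, normal q 0.00240) and the value of Pcz-BL-8h was not (-0.82, normal q 0.132).

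UKN2 (Glyma06g04180, chromosome 6, 2893885 to 2898428) had control values of 5.31, 5.02, 5.03 and 4.16 FPKM and treated values of 3.59, 3.46, 4.92 and 5.78 FPKM in the authors' deposited tables. Pcz and Pcz-BL lay below every control value and Pcz-BL-8h above every one. It fell by 0.56 in the authors' deposited table Pcz (SE 0.396), with the largest q of the 10 calls (0.0389), a call lost by the normal q (0.282) and as a share of total FPKM. In Pcz-BL the log2 fold change of -0.54 was of like size but not called in the authors' deposited table (q = 0.122). Of the 3 genes on chromosome 12, UKN1 and CYP2 lie 191317 bases apart and were called in different tables, and SKIP16, a further 1870322 bases away, was called in none.

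Whether a gene's response differed between treatments was tested directly, with a two-sided z test of the difference of 2 log2 fold changes and Benjamini-Hochberg adjustment over all genes. The errors of the 2 tables were taken as independent. The labels give 1 control group for all tables. The control columns of Pcz-BL-1h and Pcz-BL-8h differed from that of Pcz-BL by nearly a single factor (SD of the log2 ratio 0.000938 and 0.00659). Between these tables an error of the control enters both fold changes, so taking errors as independent calls too few genes. The control column of Pcz differs gene by gene from the others. How far errors are shared with that table, and which way this moves its calls, was not tested. Against Pcz, 1 of 7 genes was called in Pcz-BL (5.18% of all genes), 1 in Pcz-BL-1h (25.5% of all genes) and 2 in Pcz-BL-8h (34.3%). Between the hormone tables, 0 of 7 differed from Pcz-BL to Pcz-BL-1h (13.5% of all genes, with ACT11 alone at an unadjusted p under 0.05), 2 from Pcz-BL to Pcz-BL-8h (23.8%) and 1 between the sheets of high BL (7.53%).

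CYP2 made 4 of these 7 calls. Its log2 fold change in Pcz-BL minus that in Pcz was -1.73 (95% interval -2.50 to -0.95, q = 0.000725 by the z test). In Pcz-BL-8h it was higher by 1.93 than in Pcz-BL (interval 0.94 to 2.93, q = 0.00157 by the z test). ACT11 was higher in Pcz-BL-8h than in Pcz-BL by 1.98 (interval 0.83 to 3.12, q = 0.00562 by the z test). For UKN1 the difference of Pcz-BL-8h from Pcz was -1.35 (interval -2.41 to -0.29, q = 0.0386 by the z test). On the FPKM scale the 6 differences ran from -0.20 to 0.18 for SKIP16 and from -0.48 to 0.30 for TIP41, with none called. As shares of total FPKM they reached -1.01 for SKIP16 (Pcz-BL-8h minus Pcz-BL) and -0.77 for TIP41 (Pcz-BL-8h minus Pcz), again with none called. As shares of total FPKM the differences of ACT11 and CYP2 between Pcz-BL-8h and Pcz-BL were no longer called (q = 0.113 and 0.0753 by the z test) and that of UKN1 was (-1.50, q = 0.0373 by the z test), and with fold changes centred on the median gene the difference of UKN1 from Pcz was not (q = 0.0601). The intervals of SKIP16 and TIP41 still held differences of 2-fold, reaching 1.14 for SKIP16 in Pcz-BL against Pcz.

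The spread of each gene over the 5 groups was then taken as the SD of log2(FPKM), with control as the mean of its 4 columns. SDs ran from 0.191 for SKIP16 over 0.262 for TIP41, 0.319 for UKN2, 0.398 for ELF1B, 0.571 for UKN1 and 0.651 for ACT11 to 0.834 for CYP2. With each fold change kept within its own table, the order was the same and SKIP16 had an SD of 0.118. Across tables, the highest group stood above the lowest by 1.39-fold for SKIP16, 1.55-fold for TIP41, 3.25-fold for ACT11 and 4.11-fold for CYP2. The lower scale of Pcz-BL-8h enters these ratios, and SKIP16 was lowest there although 1.09-fold above its own control. Against each table's own control, log2 fold changes ran from -0.70 to 1.28 for ACT11 and from -1.38 to 0.55 for CYP2. They ran from 0.13 to 0.33 for SKIP16 and from -0.12 to 0.36 for TIP41. Among 10818 genes of at least 10 FPKM on average the median SD was 0.660, below that of CYP2 and close to that of ACT11. SKIP16 stood at the percentile 3.42 of these genes, TIP41 at 8.32, ELF1B at 22.1, ACT11 at 49.3 and CYP2 at 63.7. As shares of total FPKM, SKIP16 stood at 26.3 and TIP41 at 18.7. On the FPKM scale without the Pcz group they stood at 9.36 and 0.111, with the lower scale of Pcz-BL-8h left in. UKN1 and UKN2 fall below 10 FPKM; among genes of at least 1 FPKM on average they stood at 35.8 and 10.9. On the FPKM scale, of 10776 genes averaging at least 10 FPKM and tested in all tables, 3842 (35.7%) stayed under 2-fold in every table. So did 5 of the 7 reference genes, all but ACT11 and CYP2, though UKN1 and UKN2 lie below that level. As shares of total FPKM, SKIP16 (log2 of 1.07 in Pcz-BL), UKN1 (1.12 in Pcz), ACT11 (1.21 in Pcz-BL-8h) and ELF1B (1.32 in Pcz-BL-1h) passed 2-fold. UKN2, TIP41 and CYP2 did not, and the part of all genes under 2-fold was not computed on that scale.

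**Figure D3:**
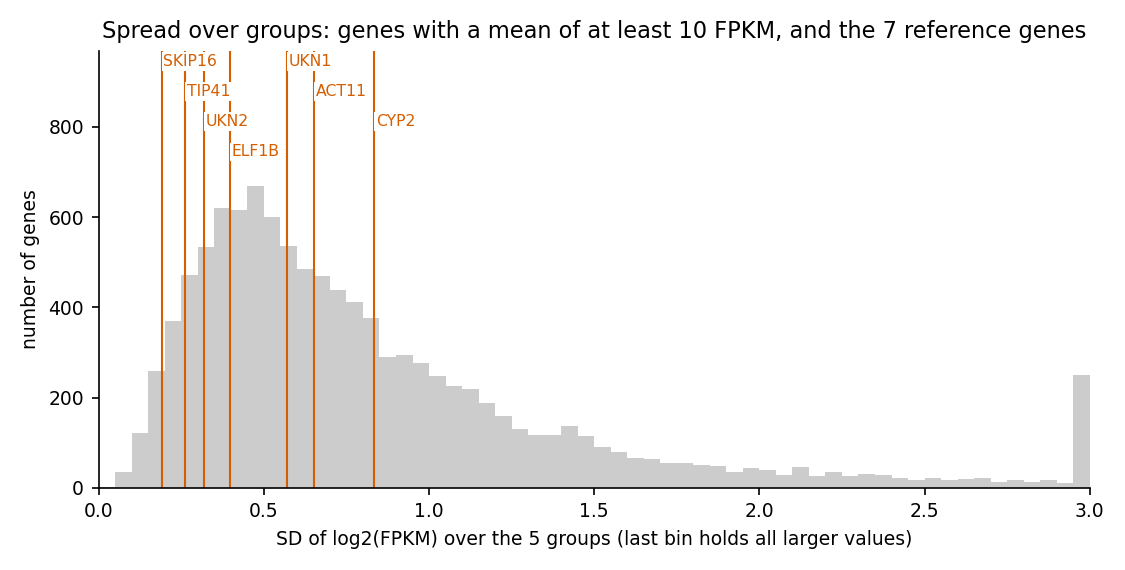
Number of genes (vertical) by SD of log2(FPKM) over the 5 groups (horizontal) for 10818 genes averaging at least 10 FPKM, with lines at the SD of each reference gene; UKN1 and UKN2 themselves have means under 10 FPKM. SKIP16 (0.191) and TIP41 (0.262) lie at the left edge of the distribution, ACT11 near its median of 0.660 and CYP2 (0.834) beyond it.

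This order depended on how levels were scaled. In the authors' tables the FPKM of all genes summed to 0.698, 0.600, 0.655 and 1.05 times control, in sheet order. Genes of at least 100 FPKM in either column summed to 0.523, 0.404, 0.470 and 1.06 times control, and the remaining genes to 0.943, 0.866, 0.909 and 1.03 times. Expressed as shares of total FPKM, every log2 fold change moved up by 0.52, 0.74 and 0.61 in the first 3 tables and down by 0.07 in Pcz-BL-8h, the median gene included, which stood at 0.01, -0.13, -0.07 and -0.10 before. As shares, SKIP16 had an SD of 0.465 and TIP41 of 0.409, and UKN2 had the lowest at 0.244. SKIP16 as a share was called higher than control in the first 3 tables, by 0.68, 1.07 and 0.76 (normal q 0.0406, 0.0386 and 0.0326), and TIP41 in Pcz by 0.88 (normal q 0.00897). CYP2 was then called higher in Pcz by 0.87 (normal q 0.00107) and not called in Pcz-BL (-0.64, normal q 0.126) or Pcz-BL-1h (-0.24, normal q 0.452). ACT11 in Pcz-BL-8h was called higher on both scales.

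The rule for a call moved the background as well as the references. At q of 0.01, 42.3%, 26.5%, 41.8% and 44.9% of all genes were called in the 4 tables, and 1, 2, 3 and 3 of the 7. With a minimum of 2-fold beside q, 33.1%, 25.6%, 30.6% and 41.6% of all genes were called, and 0, 1, 0 and 1 of the 7, namely CYP2 in Pcz-BL and ACT11 in Pcz-BL-8h. With fold changes centred on the median gene, the normal q called 34.3%, 14.9%, 29.3% and 31.0% of genes and 0, 1, 2 and 2 of the 7. Among genes of at least 1 FPKM, 54.6%, 37.7%, 53.4% and 58.9% were called, and 2, 2, 3 and 3 of the 7. By the normal q on shares of total FPKM, 46.7%, 21.6%, 38.0% and 31.4% of genes were called, and 5, 1, 3 and 1 of the 7.

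Ratios between 2 genes of the same column do not depend on the scaling of columns, so pairs of references were compared next, 21 in all and with no test. A ratio does not cancel differences between control columns that vary by gene. In Pcz the control of CYP2 was 1.24 times and that of TIP41 1.11 times that in Pcz-BL. The part of such differences in the SDs below was not tested. The SD over the 5 groups of the log2 ratio was lowest for UKN2 with ELF1B at 0.298, for SKIP16 with TIP41 at 0.308 and for ACT11 with ELF1B at 0.325. SKIP16 over TIP41 was 1.59 in control and between 1.25 (Pcz) and 2.14 (Pcz-BL) in the treated groups. The largest SD, 1.13, was that of UKN1 with ACT11: UKN1 over ACT11 was 0.188 in control and 0.286, 0.293, 0.100 and 0.0464 in the treated groups, in sheet order. The highest of these ratios exceeded the lowest by 6.33 times, and the change of a target between those groups would differ by that factor depending on which of the pair it was read against. Averaged over its 6 partners, the SD was 0.537 for TIP41, 0.562 for ELF1B, 0.563 for UKN2, 0.596 for SKIP16, 0.706 for ACT11, 0.786 for UKN1 and 0.852 for CYP2.

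**Figure D4:**
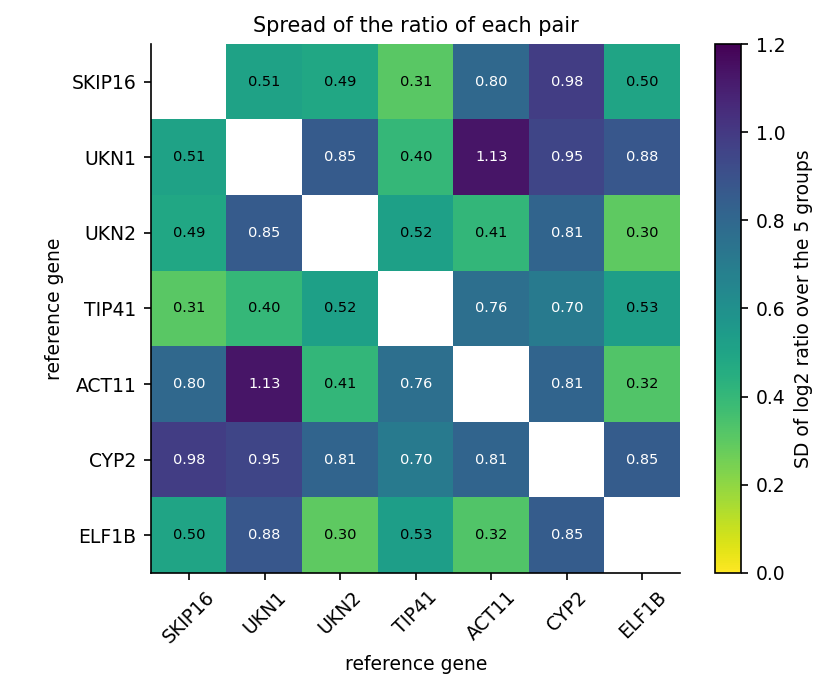
SD over the 5 groups of the log2 ratio of 2 reference genes (colour and printed value, log2 units), for each of the 21 pairs (rows and columns). The highest value is at UKN1 with ACT11 (1.13), and the lowest are at UKN2 with ELF1B (0.298), SKIP16 with TIP41 (0.308) and ACT11 with ELF1B (0.325).

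Averages of several references were also formed, on the FPKM scale and with levels compared across tables that were normalised separately. The mean log2 level of all 7 had an SD of 0.220, against 0.191 for SKIP16 alone, and stood at the percentile 4.93 of genes averaging at least 10 FPKM. Among pairs the mean of SKIP16 and UKN2 had the lowest SD, 0.101, and the mean of TIP41 and UKN2 followed at 0.135. The highest was that of ACT11 and CYP2 at 0.628. Being the lowest or the highest of 21 is how these pairs were picked. The lower scale of Pcz-BL-8h, whose control stood at 0.829 times that of Pcz-BL at the median gene, enters all these SDs. In Pcz-BL-8h SKIP16 and UKN2 both stood above their own control, by 0.13 and 0.48 on the log2 scale. Which pair would be lowest with each fold change kept within its own table was not tested.

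The weight of the choice can be read from all genes divided by each reference in turn. On the FPKM scale 4162 genes stood at least 2-fold higher and 6406 at least 2-fold lower in Pcz-BL. Relative to CYP2 the numbers were 22045 higher and 1852 lower, and relative to SKIP16 3046 higher and 9247 lower. The FPKM scale is itself a choice of baseline. As shares of total FPKM every log2 fold change of Pcz-BL moves up by 0.74. Division by ACT11, whose log2 fold change there was -0.70, moves them by a like amount and gave 9711 higher and 3310 lower. Counts on the scale of shares were not made, and nearness to the FPKM counts does not rank the references. In Pcz-BL-8h, 7125 genes were higher and 8600 lower on the FPKM scale, against 2325 and 21142 relative to ACT11 and 13446 and 4276 relative to UKN1. In Pcz the numbers relative to UKN2 (10378 higher and 4895 lower) and UKN1 (2390 and 11741) were the farthest apart. In Pcz-BL-1h they were 14591 and 1381 relative to CYP2 and 4405 and 14116 relative to ELF1B. The highest number of genes 2-fold higher exceeded the lowest by 4.34, 7.24, 3.31 and 5.78 times over the 7 references in the 4 tables.

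**Figure D5:**
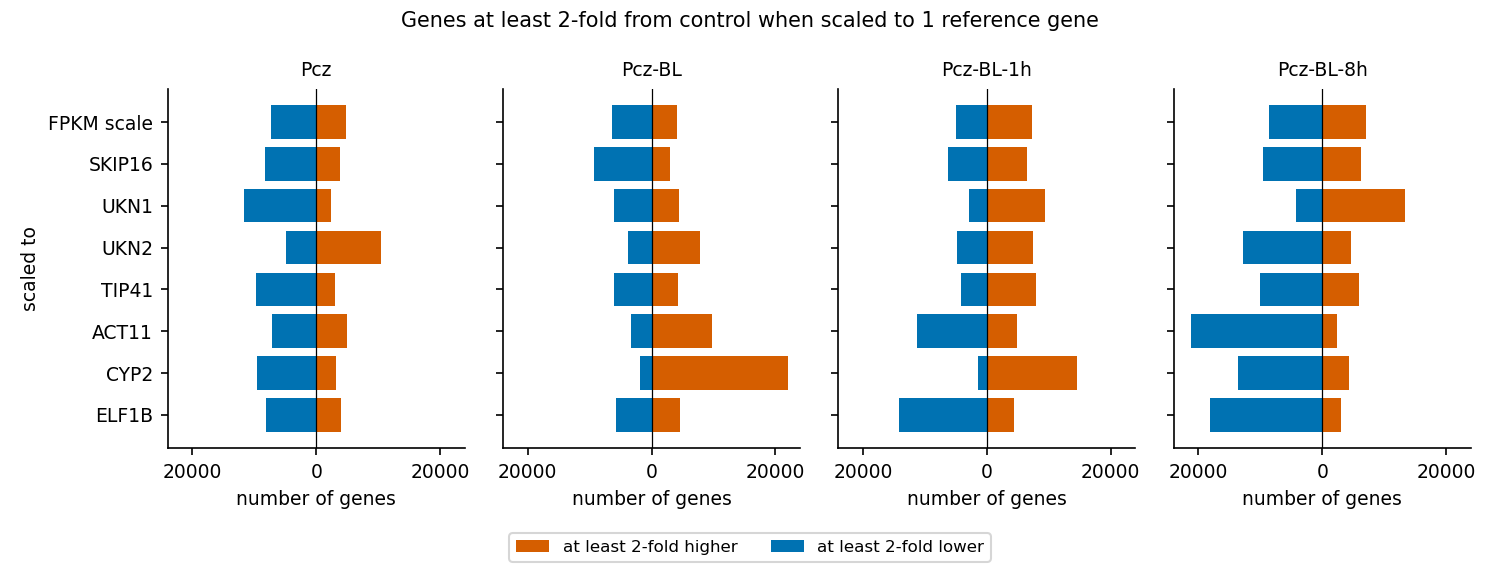
Number of tested genes at least 2-fold higher (right) and lower (left) than control in each table (panels), on the FPKM scale and after division by each of the 7 reference genes (rows). Relative to CYP2 in Pcz-BL most of the genes past 2-fold are higher (22045 against 1852 lower), and relative to ACT11 in Pcz-BL-8h most are lower (21142 against 2325 higher).

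For each reference the gene with the most similar course was looked up, by the smallest Euclidean distance over the 4 log2 fold changes among the 10776 genes above. For SKIP16 this was Glyma06g00260 (chromosome 6, 72967 to 78072), at a distance of 0.0725, and for TIP41 Glyma03g41700 (chromosome 3, 47100628 to 47104968), at 0.0966. For ACT11 it was Glyma18g51221 (chromosome 18, 60153710 to 60157420), at 0.163, and for ELF1B Glyma15g10950 (chromosome 15, 7986180 to 7989651), at 0.156. For UKN1 and UKN2 it was Glyma13g41830 (chromosome 13, 42026943 to 42034729), at 0.0907, and Glyma06g03910 (chromosome 6, 2726966 to 2730886), at 0.0808. CYP2 had the most distant match, Glyma05g01730 (chromosome 5, 1206623 to 1209216), at 0.362. The files give these IDs no names, and 4 values per gene are few for a likeness.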

How the data were processed

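Libraries were made with a stranded TruSeq messenger RNA kit per the labels' protocols. The labels do not say that replicates came from separate plants, so p-values measure only the spread between these libraries, which could be technical. The authors deposited FPKM made by Cuffdiff per the file headers, pooled to 1 value per group and table. Not given in the sources used here is its version, the aligner or the build. The deposited score is Cuffdiff's test statistic. No deposited p-value is below 5e-05. The deposited q-value equals a Benjamini-Hochberg adjustment over tested genes to within 5.29e-07. The deposited log2 fold change is of treated over control. The authors' short lists match the full table of the same sheet name and hold 0 of the 7 genes. Depth is unknown, and no interval that needs it was computed.

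The fit planned on values per library could not be made on pooled columns, and the authors' test was used, the fallback written with it. SEs were the absolute ratio of fold change to test statistic, and 95% intervals used the normal distribution. The z test was tested on simulated data with independent normal errors of the SEs it assumes. That run therefore covers neither a shared control nor an error in the SEs themselves. The adjusted p of the z test is written q. Scaling by total FPKM and the use of other tables' controls were added after the data were seen. The members, lists and tests were chosen with earlier results of these data known. Named genes are the 7 references, the closest match of each, and the 3 steadiest genes averaging at least 10 FPKM. Columns of per-sample values with no known sample numbered 0. Python 3.11.15, numpy 2.4.6, pandas 2.3.3, scipy 1.17.1 and matplotlib 3.10.9 were used.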

Additional observations from a re-analysis of the deposited data

Results flagged for a closer look

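By the z test of the difference between tables, with errors taken as independent, 7 of 42 differences of the reference genes passed a q of 0.05. Of all genes, from 5.18% (Pcz-BL against Pcz) to 34.3% (Pcz-BL-8h against Pcz) passed, by pair of tables. For CYP2 the log2 fold change differed by -1.73 in Pcz-BL and by -1.19 in Pcz-BL-1h from that in Pcz. In Pcz-BL-8h that of CYP2 differed by 1.93 from Pcz-BL and by 1.40 from Pcz-BL-1h. For ACT11 it differed by 1.30 in Pcz-BL-8h from Pcz and by 1.98 from Pcz-BL, and for UKN1 by -1.35 in Pcz-BL-8h from Pcz. As shares of total FPKM, both differences of CYP2 from Pcz and that of UKN1 passed (q = 0.00448, 0.00625 and 0.00167 by the z test). The 4 other differences did not, with q of 0.0753 and 0.308 for CYP2 and 0.275 and 0.113 for ACT11. The unequal control column of CYP2 in Pcz enters both its differences from that table, and its part in them was not tested.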

How the results depend on the processing

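The number of the 7 genes called in Pcz, 2 by the authors' q, was 1 at q of 0.01, 0 with a 2-fold minimum or with the normal distribution of the statistic (centred on the median gene or not), and 5 as shares of total FPKM. Calls as shares used the normal q, by which 0, 1, 1 and 2 of the 7 were called on the FPKM scale in the 4 tables. In Pcz-BL, 2 became 1 with a 2-fold minimum or the normal distribution, centred or not (CYP2, lower), and as shares 1 other (SKIP16, higher), with ACT11 and CYP2 both lost. In Pcz-BL-1h, 3 became 0 with a 2-fold minimum and 1 with the normal distribution. In Pcz-BL-8h, 3 became 1 with a 2-fold minimum and as shares. A filter of 1 FPKM left all 4 numbers as they were. For differences between tables, 2 from Pcz to Pcz-BL-8h became 1 when centred on the median (ACT11), 1 as shares (UKN1) and 0 at 0.01; from Pcz-BL to Pcz-BL-8h both calls were lost as shares and 1 was made (UKN1); and between the sheets of high BL 1 became 0 at 0.01 and as shares. Of log2 fold changes against control, directions turned only for values below control; as shares, some differences between tables that had not been called turned too, such as that of CYP2 in Pcz-BL-8h from Pcz, from 0.21 to -0.38. Centred on the median, UKN1, TIP41 and ELF1B stood at 0.072, 0.089 and 0.032 in Pcz-BL and UKN2 at 0.035 in Pcz-BL-1h. As shares, ACT11 stood at 0.50 in Pcz; UKN1, UKN2, TIP41, ACT11 and ELF1B at 0.68, 0.20, 0.69, 0.038 and 0.64 in Pcz-BL; and UKN1, UKN2 and TIP41 at 0.25, 0.58 and 0.49 in Pcz-BL-1h. Of these only the fall of ACT11 in Pcz-BL had been called. The median SD of the 7 genes, 0.398, ran from 0.373 to 0.476 over all settings tried. Without the Pcz group TIP41 had an SD of 0.0411 on the FPKM scale, against 0.219 for SKIP16. Those SDs compare levels across tables, so the lower scale of Pcz-BL-8h enters them. Against each table's own control the log2 fold changes of TIP41 in the hormone tables were -0.042, -0.12 and 0.18. For SKIP16 they were 0.33, 0.15 and 0.13. The cause of the shifts between settings was not tested. No paired analysis was possible because the columns pool the libraries of a group, and no fit without single replicates was run for the same reason. Depth is not given, so what it limits is unknown.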

Other observations

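Genes steadier than any of the 7 references on the FPKM scale were present. The 3 with the smallest of their largest log2 fold change over the 4 tables, among genes tested in all averaging at least 10 FPKM, were Glyma02g35990 (chromosome 2, 41377639 to 41380993), Glyma17g13770 (chromosome 17, 10553577 to 10557136) and Glyma08g21380 (chromosome 8, 16221356 to 16227084). Glyma02g35990 stood at 53.8, 57.4, 55.7 and 45.8 FPKM in the 4 treated columns, and its fold changes did not exceed 0.087 on the log2 scale. The largest changes of Glyma17g13770 and Glyma08g21380 were 0.097 and 0.099, against 0.33 for SKIP16. They were picked as the lowest of 10776 genes, which favours small values by itself, they carry the same dependence on scaling, and the files give them no names.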
